A study of Mus musculus with 9 samples.

Results

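The genes of the unfolded protein response and the chaperones of the endoplasmic reticulum (ER) were followed in mouse lung after lipopolysaccharide (LPS). They were chosen by symbol: 32 genes were listed, and all 32 were found in the count table of 21930 genes. All 32 also passed the filter on low counts, which 15636 genes passed in all. They were divided by role into 15 ER chaperones and folding enzymes, 7 genes of ER-associated degradation, 3 genes of the IRE1-XBP1 and ATF6 arms, and 7 genes of the PERK-ATF4 arm. Ddit3 stands in the table under a second identifier, which had 0 reads in all libraries together.

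Lungs came from 9 mice, described as male C57BL/6 animals aged 6 to 8 weeks, in 3 groups of 3 biological replicates. Control mice received sterile saline into the trachea. The LPS group received LPS, the bacterial envelope molecule also called endotoxin, at 2 mg/kg by the same route, followed by vehicle by gavage. The third group received the same LPS and then daily gavage of RSBD, the decocted Chinese herbal formula Renshen Baidu Powder. All mice were anesthetized with tribromoethanol. Gavage began the day after instillation and ran for 5 days, and lungs were taken on day 5, so the number of doses received before collection is unclear. The labels do not say separately that the saline mice were gavaged with vehicle. The model is whole lung at a single time, and in bulk RNA fewer cells of a type and less RNA per cell cannot be told apart.

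Total counts ranged from 26959662 to 36113905 per library. Markers of the labelled tissue were present in every library, with alveolar type 2 markers summing to between 13368 and 20413 CPM (counts per 1e+06 reads, with library sizes scaled by the trimmed mean of M values). The libraries differed from their labels in 1 respect: genes on chromosome Y held 6, 7 and 9 reads in the 3 control libraries and between 7511 and 10918 reads in the other 6. All comparisons with control therefore also set libraries without chromosome Y transcripts against libraries with them, and the treatment and that difference cannot be told apart. No member lies on chromosome X or Y.

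Secreted and membrane proteins fold in the ER with the help of chaperones, lectins and enzymes that form disulfide bonds, and proteins that fail to fold are returned to the cytosol and degraded. When unfolded protein builds up, 3 sensors in the ER membrane respond. IRE1 splices the mRNA of the factor XBP1, ATF6 is cut to release a transcription factor, and PERK slows translation while favouring translation of ATF4. XBP1 and ATF6 raise chaperone and degradation genes, and ATF4 raises genes of amino acid supply and, through CHOP, of cell death. In lung, cells with a heavy secretory load such as alveolar type 2, club and plasma cells depend on this system. The deposited counts are per gene, so the spliced and unspliced forms of Xbp1 mRNA, the cleavage of ATF6 and the phosphorylation of PERK were not measured.

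Levels of the members were first ordered by TPM, a unit of transcript abundance that takes gene length into account. In control lungs Hsp90b1, which encodes the ER form of the HSP90 chaperone, had the highest TPM of the members, 621 ± 53.0 (SD, n = 3). It was followed by the lectin chaperone Calr at 457 ± 49.2 TPM, the HSP70 chaperone Hspa5 (BiP) at 354 ± 63.5 and the factor Xbp1 at 346 ± 37.9. The values of Hspa5 and Xbp1 differed by less than their spread. The disulfide isomerases P4hb and Pdia3 stood at 289.9 ± 31.3 and 266 ± 15.4 TPM, which also lay within their spread. The sensor genes were far lower, with 31.1 ± 3.54 TPM for Atf6, 30.4 ± 2.62 for Ern1 (IRE1) and 19.6 ± 1.23 for Eif2ak3 (PERK). At the bottom of the order stood 2 ATF4 targets, the pseudokinase gene Trib3 at 5.21 ± 0.859 TPM and the glutathione-degrading enzyme gene Chac1 at 3.35 ± 0.589 TPM.

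The members' promoters were searched because many chaperone genes are known to carry an ER stress element, a site bound by ATF6 and, in some genes, XBP1. RefSeq promoters on GRCm38.p6, each 300 bases long with 250 before the transcription start and 50 from the start onward, were available for 28 of the 32 members. Hyou1, Manf, Derl1 and Atf6 had no entry. The ER stress element was searched as CCAAT, any 9 bases, CCACG, and element II as ATTGG, any 1 base, CCACG, each on both strands. The ER stress element was found in 9 of the 28 members with a promoter (32.1%) and in 39 of 32851 promoters overall (0.119%). Members were counted as genes with a match in any of their 29 promoters. The overall figures count single promoters, those of the members included. Element II was found in 2 members, Herpud1 and Dnajb11 (7.14%), and in 12 promoters overall (0.0365%). Both elements end in CCACG, which alone stood in 82.1% of the members' promoters and in 32.8% of all promoters. By role, 1 or the other element was found in 8 of the 13 chaperone genes with a promoter entry and in 3 of the 6 degradation genes. It was found in 0 of 2 entries for the IRE1-XBP1 and ATF6 arms and in 0 of 7 for the PERK-ATF4 arm. The unfolded protein response element TGACGTGG was found in 0 members and in 0.676% of all promoters. The C/EBP-ATF response element was searched only in the form TGATG, any 1 base, AAT. That form was found in 0 members and in 0.965% of all promoters. Forms with another last base were not searched, so this count does not show that ATF4 targets lack the element. These are matches of letters in this window and do not show that a factor was bound.

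The windows below hold the matches that lie before the start, from 10 members, so that the spacing and orientation can be compared. Each runs 5′ to 3′ on the strand of its gene, with 10 bases on either side of the match, and the capitals mark the element. In Calr, Derl3, Creld2 and the second match of Hsp90b1 the element reads in reverse, beginning with CGTGG and ending with ATTGG.
Hspa5, chr2:34772015-34772053, plus strand: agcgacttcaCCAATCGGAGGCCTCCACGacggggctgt
Hsp90b1, chr10:86705523-86705666, minus strand: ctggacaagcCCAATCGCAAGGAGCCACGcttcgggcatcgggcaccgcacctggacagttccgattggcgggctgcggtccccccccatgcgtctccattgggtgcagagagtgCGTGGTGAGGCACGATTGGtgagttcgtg
Calr, chr8:84847065-84847103, minus strand: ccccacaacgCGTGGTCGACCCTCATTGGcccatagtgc
Canx, chr11:50325790-50325828, minus strand: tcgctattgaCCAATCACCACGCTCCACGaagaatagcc
Pdia6, chr12:17266481-17266519, plus strand: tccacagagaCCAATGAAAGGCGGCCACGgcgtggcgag
Dnajc3, chr14:118937817-118937855, plus strand: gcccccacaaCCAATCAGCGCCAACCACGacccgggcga
Creld2, chr15:88819510-88819548, plus strand: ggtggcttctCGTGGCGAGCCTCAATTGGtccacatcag
Syvn1, chr19:6046522-6046560, plus strand: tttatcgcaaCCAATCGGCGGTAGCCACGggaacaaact
Derl3, chr10:75893232-75893270, plus strand: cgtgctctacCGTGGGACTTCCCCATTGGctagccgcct
Herpud1, chr8:94386367-94386397, plus strand: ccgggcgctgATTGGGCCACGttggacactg
Of the matches before the start, the nearest was that of Syvn1, whose first base lies 44 bases before it. The farthest was the first match of Hsp90b1, whose first base lies 212 bases before the start.

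**Figure D1:**
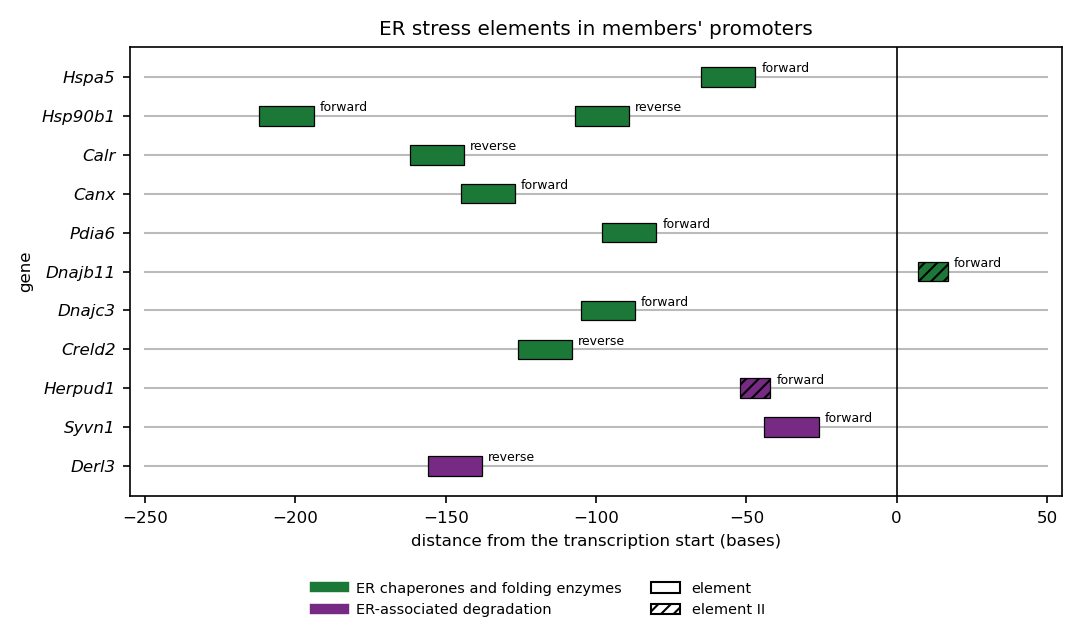
Position of each ER stress element (plain box) or element II (hatched box) in the promoters of the 11 members that hold one, as distance in bases from the transcription start (vertical line). Green marks chaperones and folding enzymes and purple marks degradation genes; forward and reverse give the orientation on the gene's strand. The match in Dnajb11 is the only one drawn that lies after the start, and Hsp90b1 is the only member with 2 matches.

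Comparing LPS with control, which asks which lung transcripts differed 5 days after LPS, 8 of the 32 members fell and 0 rose. The 8 genes were the chaperones and co-chaperones Hspa5, Hyou1, Dnajc3 and Creld2, the degradation ligase Syvn1, the sensor Ern1 and the factors Atf4 and Ddit3. Their fitted log2 fold changes lay between -0.82 and -0.37. By edgeR's quasi-likelihood test and Benjamini-Hochberg correction across the 15636 genes, 17.4% of all genes were called, 8.79% higher and 8.63% lower, and 25% of the members were called, all of them lower. On the deposited TPM values, limma-trend on log2(TPM + 1) called 13 members, all lower, and 2035 genes, of which 34.4% were higher against 50.5% of the calls from counts. Of the members, 26 had a log2 fold change below 0, and their median was -0.23 against -0.01 for all genes tested. Without LPS library 1 the members' median was -0.15. In 13 members every LPS library lay below every control library, where 19.5% of all genes did so. In 1 member, Derl1, every LPS library lay above every control library, where 18.6% of all genes did so.

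**Figure D2:**
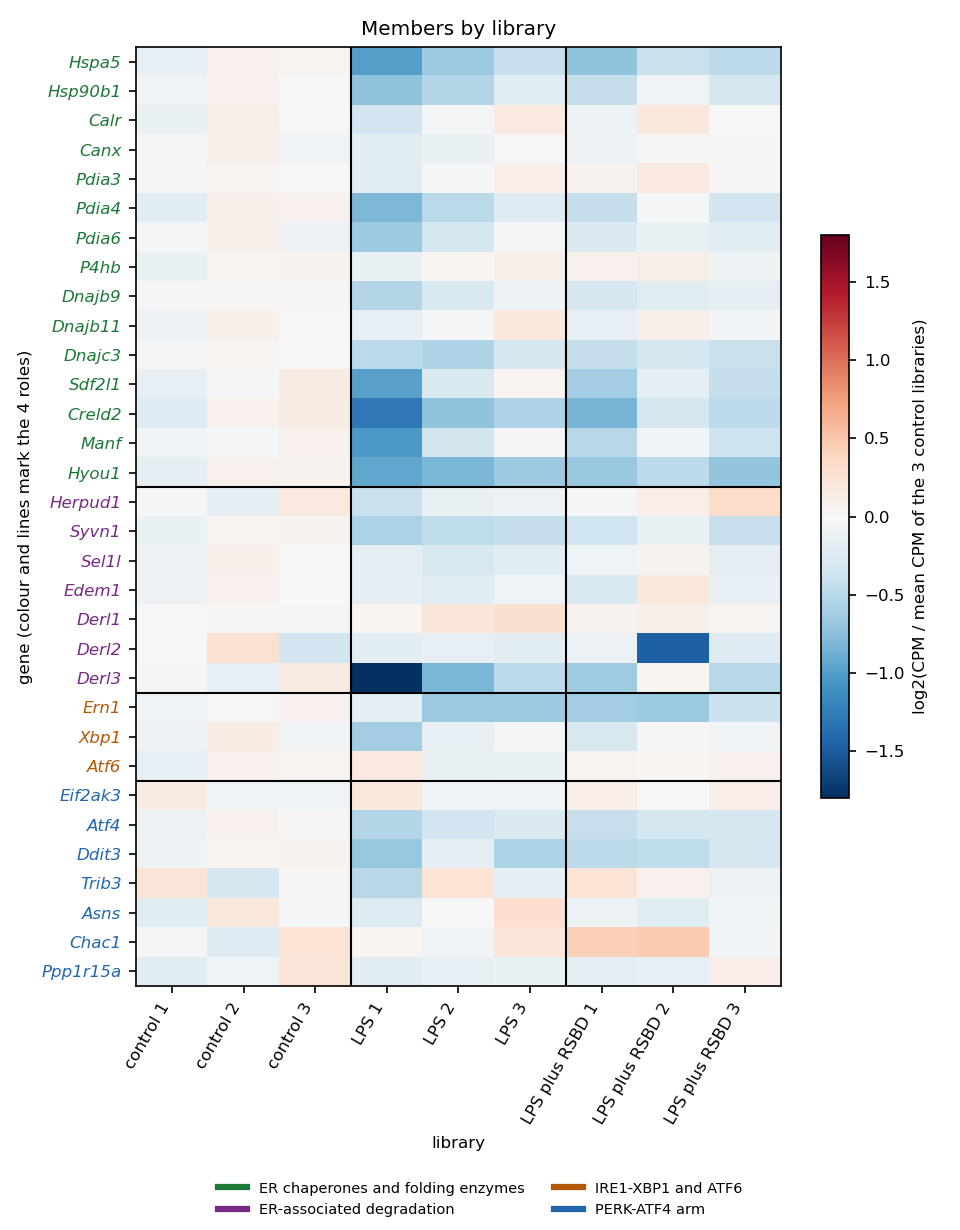
Level of each of the 32 members (rows, coloured by role) in each of the 9 libraries (columns), as log2 of the CPM over the mean CPM of the 3 control libraries. Blue is below the control mean and red above it. The LPS columns are mostly blue in the chaperone rows, most deeply in LPS library 1, and the single deep blue cell outside the LPS columns is Derl2 in LPS plus RSBD library 2.

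Among the 15 chaperones and folding enzymes, 4 fell, 0 rose and 11 did not pass the test. Their median log2 fold change was -0.34, and 13 of the 15 were below 0. With 1 library left out the median lay between -0.50 and -0.17, the latter without LPS library 1. Hyou1, an ER chaperone that helps HSPA5 exchange nucleotide, stood at 184, 217 and 215 CPM in the controls and at 107, 116 and 129.9 CPM in the LPS libraries. The groups did not overlap, and the log2 fold change was -0.80 ± 0.11 (SE; edgeR adjusted p = 0.00323). Hspa5, the chaperone that binds unfolded chains and holds the sensors inactive, stood at 551, 647 and 633 CPM in the controls and at 307, 389 and 457 CPM after LPS. Every LPS library again lay below every control library, and the log2 fold change was -0.67 ± 0.15 (edgeR adjusted p = 0.0171). Dnajc3, a co-chaperone of HSPA5 also known as an inhibitor of PERK, stood at 279.8, 295 and 287 CPM in the controls and at 206, 195 and 232 CPM after LPS. Its groups lay apart, and the difference was -0.44 ± 0.09 in log2 (edgeR adjusted p = 0.0103). Creld2, an ER-resident protein with disulfide isomerase activity, stood at 50.5, 62.6 and 65.1 CPM in the controls. It stood at 24.4, 35.9 and 40.5 CPM in the LPS libraries. This was the most negative log2 fold change of the 8 called members, -0.82 ± 0.20 (edgeR adjusted p = 0.0237), with no overlap between the groups.

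The other 11 chaperones ranged from -0.49 to 0.01 in log2 fold change. Hsp90b1 and the disulfide isomerase Pdia4 were just outside the threshold, at -0.47 ± 0.15 and -0.49 ± 0.15 with edgeR adjusted p-values of 0.0505 and 0.0528, and in both the groups did not overlap. Dnajb9, a co-chaperone that directs misfolded proteins to degradation, also had LPS libraries wholly below the controls (log2 fold change -0.29 ± 0.10; edgeR adjusted p = 0.081). The secreted ER protein gene Manf, Sdf2l1, which encodes a component of the HSPA5 chaperone complex, and the isomerase Pdia6 had log2 fold changes of -0.41, -0.34 and -0.31 and overlapping groups. The 5 most nearly level chaperones were the lectins Calr and Canx, the isomerases Pdia3 and P4hb, and the co-chaperone Dnajb11, with log2 fold changes from -0.11 to 0.01. P4hb stood at 416, 472 and 478 CPM in the controls and at 418, 468 and 491 CPM after LPS. The 95% interval of the log2 fold change ran from -0.36 to 0.25 for Calr and from -0.21 to 0.24 for P4hb.

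Among the 7 degradation genes, 1 fell, 0 rose and 6 did not pass the test, with a median log2 fold change of -0.21. Syvn1, the ubiquitin ligase HRD1 at the centre of ER-associated degradation, stood at 73.3, 82.9 and 83.7 CPM in the controls and at 54.1, 58.4 and 59.3 CPM after LPS. The groups were well apart, and the log2 fold change was -0.48 ± 0.10 (edgeR adjusted p = 0.0126). Its partner Sel1l and the derlin gene Derl3 also had LPS libraries wholly below the controls, without passing the test. Derl3, which encodes a membrane protein of the export channel, had the most negative log2 fold change of all 32 members, -0.93 ± 0.30 (edgeR adjusted p = 0.0618). It stood at 28.8, 26.3 and 32.7 CPM in the controls and at 8.43, 16.5 and 21.1 CPM after LPS, so that LPS library 1 was far below the other 2. Derl1 had the opposite direction, with 126 to 129.9 CPM in the controls and 131 to 156 CPM after LPS (log2 fold change 0.18 ± 0.08; edgeR adjusted p = 0.136). Herpud1, which links the ligase complex to its substrates, the mannosidase-like lectin gene Edem1 and Derl2 had log2 fold changes of -0.21, -0.15 and -0.17 with overlapping groups.

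Of the 3 genes of the IRE1-XBP1 and ATF6 arms, 1 fell, and their median log2 fold change was -0.25, or -0.13 without LPS library 1. The sensor gene Ern1 stood at 106, 111 and 118 CPM in the controls and at 99.8, 71.1 and 70.9 CPM after LPS. All 3 LPS libraries were below the controls, but library 1 was close to them, and the log2 fold change was -0.47 ± 0.14 (edgeR adjusted p = 0.0408). Xbp1, the target of IRE1, stood at 305, 362 and 319 CPM in the controls and at 214, 298 and 319 CPM after LPS. Here only LPS libraries 1 and 2 lay below the controls, and the log2 fold change was -0.25 ± 0.15 (edgeR adjusted p = 0.268). Atf6 stood at 112, 130.2 and 128 CPM in the controls and at 139, 112 and 113 CPM after LPS. Its groups overlapped, and the log2 fold change was -0.02 ± 0.10 (edgeR adjusted p = 0.916), with a 95% interval from -0.24 to 0.20.

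Of the 7 genes of the PERK-ATF4 arm, 2 fell and 5 did not pass the test, with a median log2 fold change of -0.11. That median was -0.19 without control library 2, -0.02 without control library 3, and -0.06 without control library 1 or without LPS library 1. Eif2ak3, the gene of PERK itself, stood at 50.2, 44.1 and 43.3 CPM in the controls and at 53.0, 44.1 and 43.9 CPM after LPS (log2 fold change 0.04 ± 0.10; edgeR adjusted p = 0.832). The values of both groups covered nearly the same range. Atf4, the factor translated when PERK is active, stood at 188, 214 and 206 CPM in the controls and at 140.3, 160.0 and 169.7 CPM after LPS. Each LPS library was below each control, and the log2 fold change was -0.37 ± 0.09 (edgeR adjusted p = 0.0257). Ddit3, the gene of the cell death factor CHOP, stood at 23.4, 25.4 and 25.9 CPM in the controls and at 15.5, 22.0 and 16.8 CPM after LPS. Its groups lay apart by a narrow margin at LPS library 2, and the log2 fold change was -0.46 ± 0.14 (edgeR adjusted p = 0.046). Known targets of ATF4 and CHOP had log2 fold changes near 0: -0.11 ± 0.23 for Trib3, 0.04 ± 0.15 for the asparagine synthetase gene Asns and 0.07 ± 0.24 for Chac1. The phosphatase subunit gene Ppp1r15a (GADD34), which ends the translational block, had -0.15 ± 0.12, and in all 4 the groups overlapped. Trib3 and Chac1 were the members with the fewest reads, between 2.58 and 6.69 CPM in every library, and their intervals were among the widest.

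The 8 calls did not rest equally on the libraries. Those of Hyou1 and Dnajc3 held in 18 of 18 alternative settings, with edgeR, DESeq2 or limma adjusted p-values of at most 0.0223 and 0.0475. Hspa5, Creld2 and Atf4 lost their calls without control library 2, without control library 3 or without LPS library 2, with adjusted p-values of at most 0.0634, 0.0759 and 0.0907 in those fits. Syvn1 lost its call without control library 2 only, at an adjusted p of 0.0505. Ern1 and Ddit3 lost theirs in 11 of 18 settings, with adjusted p-values of up to 0.142 and 0.134. Without control library 2, 2 of the members were called, 3 without control library 3, 4 without LPS library 2 and 11 without LPS library 3. Derl1 was called higher without LPS library 1 (adjusted p = 0.0284 by edgeR, with a range of 0.0284 to 0.518 over the 18 settings), so that 1 member rose in that fit.

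**Figure D3:**
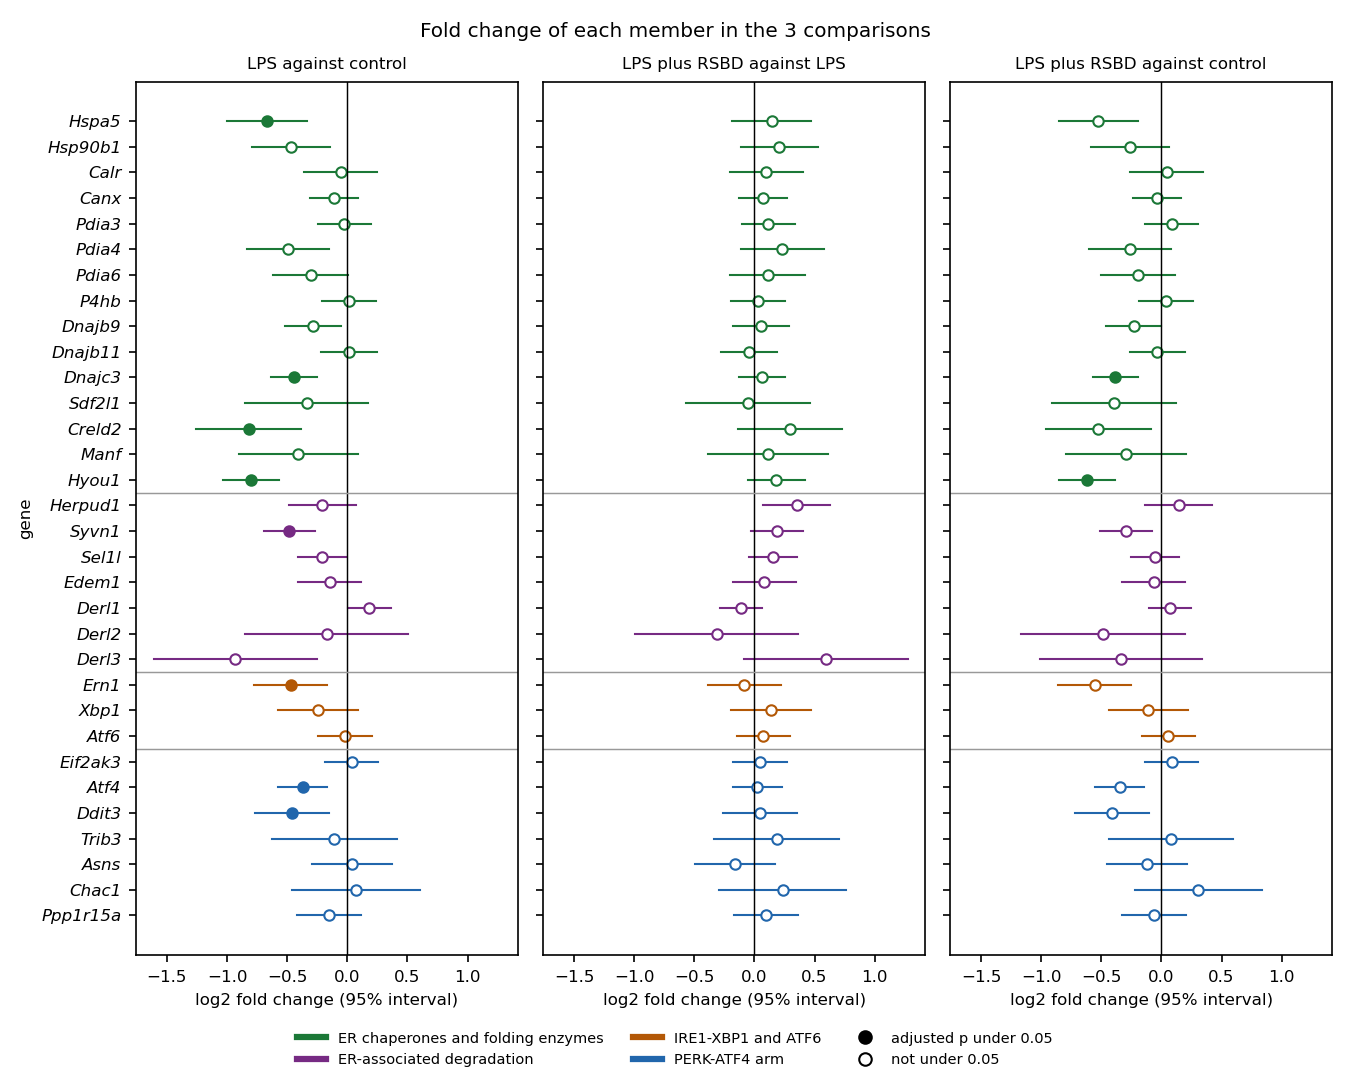
Fitted log2 fold change of each of the 32 members with its 95% interval in LPS against control (left), LPS plus RSBD against LPS (middle) and LPS plus RSBD against control (right), coloured by role. Filled points have an edgeR adjusted p under 0.05, and the vertical line marks no difference. There are 8 filled points on the left, 0 in the middle and 2 on the right, all of them left of the line.

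Comparing LPS plus RSBD with LPS, which asks whether the herbal treatment moved transcripts of the LPS lung, 0 of the 32 members passed the test in either direction. The same was true of all genes, with 0% called, 0% higher and 0% lower. At an unadjusted p under 0.05, 1 of the 32 members and 9.42% of all genes were below the threshold, and DESeq2 called 0 members and 157 genes in all. Of the members, 26 had a log2 fold change above 0, and the median was 0.10 against 0.01 for all genes, or 0.03 without LPS library 1. By role the medians were 0.11 for the chaperones, 0.16 for the degradation genes, 0.08 for the IRE1-XBP1 and ATF6 arms and 0.05 for the PERK-ATF4 arm. These medians moved with single libraries. That of the chaperones was 0.0047 without LPS library 1, 0.20 without LPS library 3 and 0.05 without treated library 2, and that of the degradation genes was 0.09 without treated library 2. For the IRE1-XBP1 and ATF6 arms it was 0.02 without LPS library 2 and 0.0034 without LPS library 3. For the PERK-ATF4 arm it was 0.02 without LPS library 1, 0.10 without LPS library 2, 0.08 without treated library 1 or 2 and -0.002 without treated library 3.

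Several lists of marker and immediate early genes also leaned to 1 side in LPS plus RSBD against LPS, with 0 of their genes called. All 15 club and secretory cell markers had a log2 fold change above 0 (median 1.16), and in 8 of them the groups did not overlap. The same direction held for 12 of 12 ciliated cell markers and 10 of 10 plasma cell markers, with medians of 0.42 and 0.39. All 13 neutrophil markers were below 0. All 10 cardiac muscle markers were above 0 (median 1.57), without overlap in 6. So were 11 of 12 immediate early genes, whose mRNA rises within minutes of stimulation or handling (median 0.43), without overlap in 7. Among all genes, 7.18% had treated libraries wholly above the LPS libraries. Endothelium and alveolar type 1 markers had medians near 0, at -0.05 and -0.04. The part of these cell types or of handling in the members' values was not tested.

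The smallest p among the members was that of Herpud1, which stood at 155, 186 and 191 CPM after LPS and at 199.5, 221 and 257 CPM after LPS plus RSBD. The groups did not overlap, and the log2 fold change of 0.35 ± 0.13 did not pass the test (edgeR adjusted p = 0.446). Syvn1 was the other member whose treated libraries, at 62.3, 73.5 and 60.1 CPM, all lay above the LPS libraries (log2 fold change 0.19 ± 0.10; edgeR adjusted p = 0.581). Among all genes, 7.18% lay wholly above and 5.46% wholly below the LPS libraries. Derl3 had the largest positive log2 fold change, 0.59 ± 0.30 (edgeR adjusted p = 0.581), with 18.7, 30.1 and 20.8 CPM after LPS plus RSBD and groups that overlapped. For Hspa5, at 371, 464 and 438 CPM, the log2 fold change against LPS was 0.14 ± 0.15 with a 95% interval from -0.18 to 0.47. For Hyou1, at 128, 148 and 126 CPM, it was 0.18 ± 0.11 with an interval from -0.05 to 0.42. For Atf4, at 152, 164 and 162 CPM, it was 0.02 ± 0.09 with an interval from -0.18 to 0.23. Ern1 stood at 72.5, 70.6 and 85.1 CPM, Xbp1 at 268, 333 and 313 CPM and Atf6 at 127, 127 and 130.4 CPM. The 3 differed from LPS by -0.08, 0.14 and 0.08 in log2 fold change, all within 1 SE of 0. Eif2ak3 stood at 49.7, 46.2 and 50.0 CPM and Ddit3 at 17.9, 18.1 and 20.2 CPM, each with a log2 fold change of 0.05 against LPS.

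**Figure D4:**
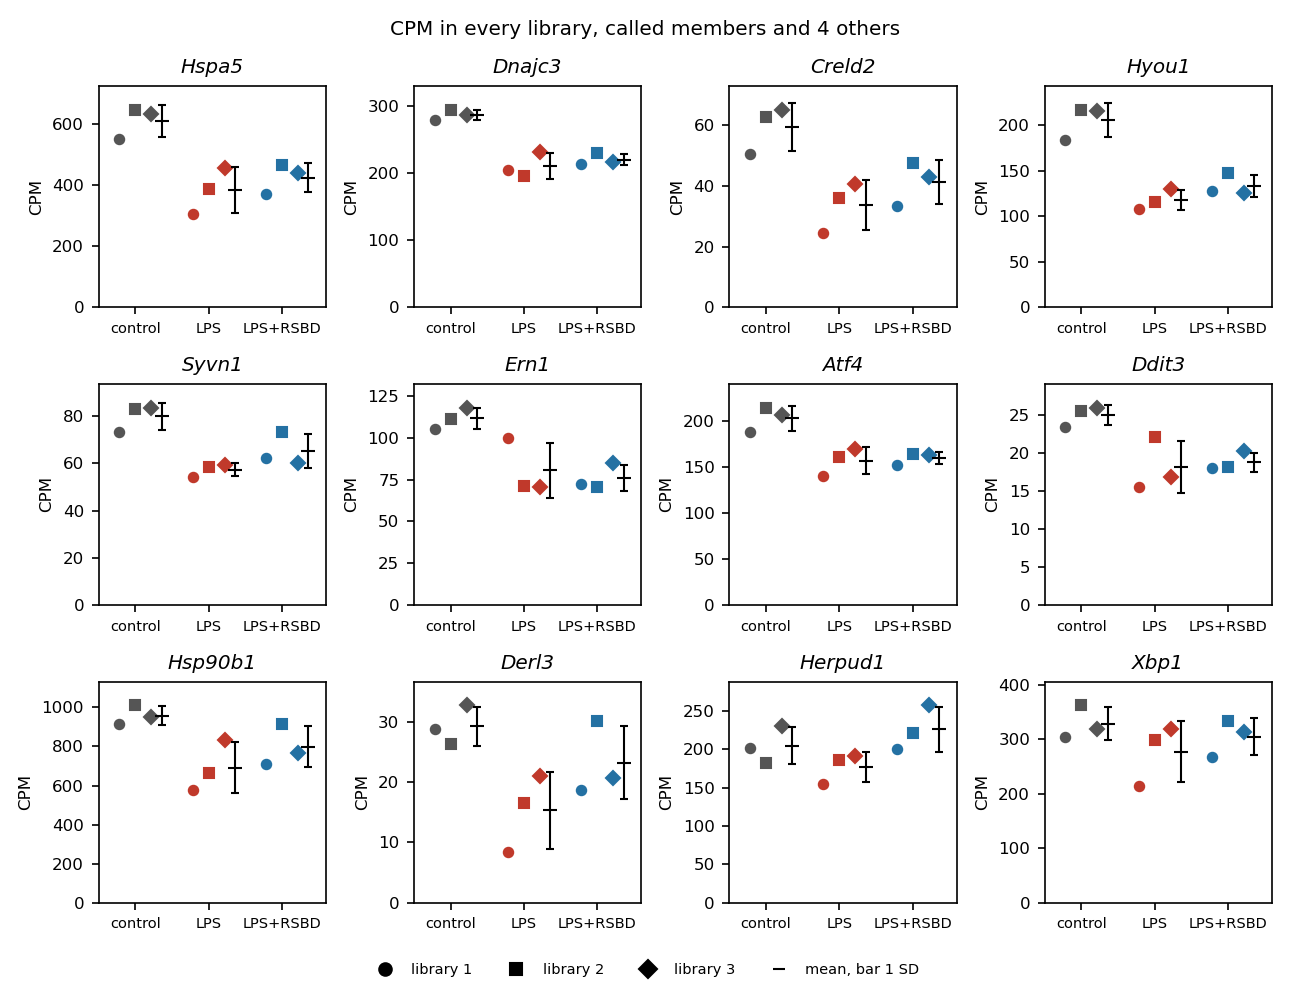
CPM in each library for the 8 members called in LPS against control and for Hsp90b1, Derl3, Herpud1 and Xbp1, which were picked after their values were seen. Symbols mark the library number within a group, the horizontal tick is the group mean and the bar 1 SD (n = 3); each panel has its own axis from 0. For Hspa5 all 6 libraries that received LPS lie at or below 464 CPM and all 3 controls at or above 551 CPM.

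In LPS plus RSBD against control, 2 of the 32 members fell and 0 rose, against 3.7% of all genes called, 1.89% higher and 1.8% lower. Both were chaperone genes. This comparison shares its control libraries with LPS against control and its treated libraries with LPS plus RSBD against LPS, so the 3 are not independent. The log2 fold change was -0.62 ± 0.11 for Hyou1 (edgeR adjusted p = 0.0175) and -0.38 ± 0.09 for Dnajc3 (edgeR adjusted p = 0.0395). Dnajc3 stood at 214, 229.8 and 217 CPM in the treated libraries, all below the lowest control. The call of Hyou1 was lost without control library 2, control library 3 or treated library 1, with adjusted p-values of up to 0.0709, and that of Dnajc3 in 9 of 18 settings, with adjusted p-values of up to 0.13. Ern1 (log2 fold change -0.55 ± 0.14), Atf4 (-0.35 ± 0.09) and Hspa5 (-0.52 ± 0.15) had edgeR adjusted p-values of 0.0522, 0.0643 and 0.078. Creld2, at 33.4, 47.7 and 42.9 CPM, differed by -0.52 ± 0.19 (edgeR adjusted p = 0.149), and Ddit3 by -0.41 ± 0.14 (edgeR adjusted p = 0.116).

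Of the 32 members, 23 were below 0 in that comparison, and the median log2 fold change was -0.16 against 0.01 for all genes. In 10 members the treated libraries lay wholly below the controls and in 1, Derl1, wholly above, where 15% and 15.4% of all genes did so. By role, the medians were -0.26 for the chaperones, -0.06 for the degradation genes, -0.11 for the IRE1-XBP1 and ATF6 arms and -0.06 for the PERK-ATF4 arm. With 1 library left out, the median lay between -0.17 (without treated library 2) and -0.02 (without control library 2 or treated library 3) for the degradation genes, and was -0.11 without control library 1. It lay between -0.18 (without treated library 2) and -0.02 (without treated library 1) for the IRE1-XBP1 and ATF6 arms, and was -0.03 there without control library 2. For the PERK-ATF4 arm it lay between -0.15 (without control library 1 or treated library 3) and 0.05 (without control library 3), and was -0.01 and -0.02 without treated libraries 1 and 2. No degradation gene had treated libraries wholly below the controls, while 7 of the 15 chaperones did. Whether the roles differ from each other was not tested.

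The chaperones shared an order of libraries within each group. Within the LPS group, library 1 had the lowest CPM for 14 of the 15 chaperones and library 3 the highest for 15 of 15. Within the treated group, library 2 had the highest CPM for 14 of the 15, and within the controls library 1 had the lowest for 13. The degradation genes shared part of it, with LPS library 1 the lowest for 4 of 7 and LPS library 3 the highest for 5 of 7. Treated library 2 was the highest for 5 of these 7, and control library 1 the lowest control for 3 of 7. In the IRE1-XBP1 and ATF6 arms, LPS library 1 was the highest for 2 of 3 genes and treated library 2 the lowest for 2 of 3. In the PERK-ATF4 arm, LPS library 1 was the lowest for 5 of 7 genes and treated library 2 the highest for 2 of 7. Other ER lists, described below, shared part of the order. Their mean centred log2 CPM in LPS libraries 1 to 3 was -0.15, 0.07 and 0.18 for translocation and glycosylation. It was -0.13, -0.0026 and 0.09 for ER to Golgi transport and -0.13, 0.07 and 0.11 for other folding enzymes. Treated library 2 was the highest of its group in each of these lists, but control library 1 was not the lowest control. The other degradation genes, also described below, stood at -0.06, 0.01 and 0.04 in LPS libraries 1 to 3. In that list treated library 1 was the highest of its group (0.02, 0.0032 and -0.03 in libraries 1 to 3). Control library 1 was there the lowest control (-0.045, -0.0026 and 0.07). Summed over the 15 chaperones, the level was 4405, 4932 and 4723 CPM in the controls, 3256, 3776 and 4375 CPM after LPS, and 3851, 4511 and 4015 CPM after LPS plus RSBD. On this sum the controls and LPS libraries did not overlap, and LPS library 3 was close to the lowest control. The median coefficient of variation of the members was 7.56% in the controls, 12.3% after LPS and 10.2% after LPS plus RSBD.

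Marker genes of secretory cells moved with that order inside the LPS group, and so did some other lists. Summed CPM in LPS libraries 1 to 3 was 1831, 2312 and 2476 for ciliated cell markers and 4416, 4695 and 5053 for alveolar type 1 markers. For cytosolic heat shock chaperones, described below, it was 2372, 2897 and 3176. Endothelium and fibroblast markers did not follow the order, at 5215, 4827 and 5297 CPM and at 2589, 3305 and 2855 CPM. Plasma cell markers, of which 10 of 16 were tested, summed to 1116, 1987 and 3358 CPM in LPS libraries 1 to 3, to 2528, 2344 and 1647 CPM in the controls and to 2458, 3468 and 2455 CPM after LPS plus RSBD. LPS library 1, the lowest for the chaperones, was the lowest for plasma cell markers. LPS library 3 and treated library 2 were the highest in their groups on both. On summed CPM, control library 1, the lowest control for the chaperones, was instead the highest control for plasma cell markers and for club and secretory cell markers. On mean centred log2 CPM it was the lowest control for club and secretory cell markers, with -0.10, 0.86 and 0.54 in control libraries 1 to 3. For plasma cell markers that measure was -0.05, 0.02 and -0.20 in the same libraries, with control library 2 the highest. Treated library 2 was the lowest of its group for club and secretory cell markers, at 30881.5 CPM beside 32626 and 39727.5 CPM. The same held for alveolar type 2 markers, at 15328 CPM beside 19810 and 18311 CPM. Between LPS and control, 1 of the 10 plasma cell markers, Tnfrsf13b, was called higher and 0 lower, and their median log2 fold change was -0.01. Of all genes tested, 8.79% were called higher and 8.63% lower in that comparison. The 15 club and secretory cell markers summed to 22649.5, 30000.4 and 34451 CPM in LPS libraries 1 to 3 and to between 32273 and 44709.5 CPM in the controls, and 6 of the 15 were called lower after LPS. Alveolar type 2 markers summed to 13368, 17582 and 20413 CPM in LPS libraries 1 to 3, and 2 of 12 were called lower. Neutrophil markers summed to 7742, 7074 and 2740.4 CPM in the same libraries and to between 945 and 2512 CPM in the controls. In the same comparison, 9 of 14 macrophage and monocyte markers and 6 of 12 T and NK cell markers were called higher, and 5 of 12 ciliated cell markers were called lower. The part of these cell types in the members' values was not tested either.

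**Figure D5:**
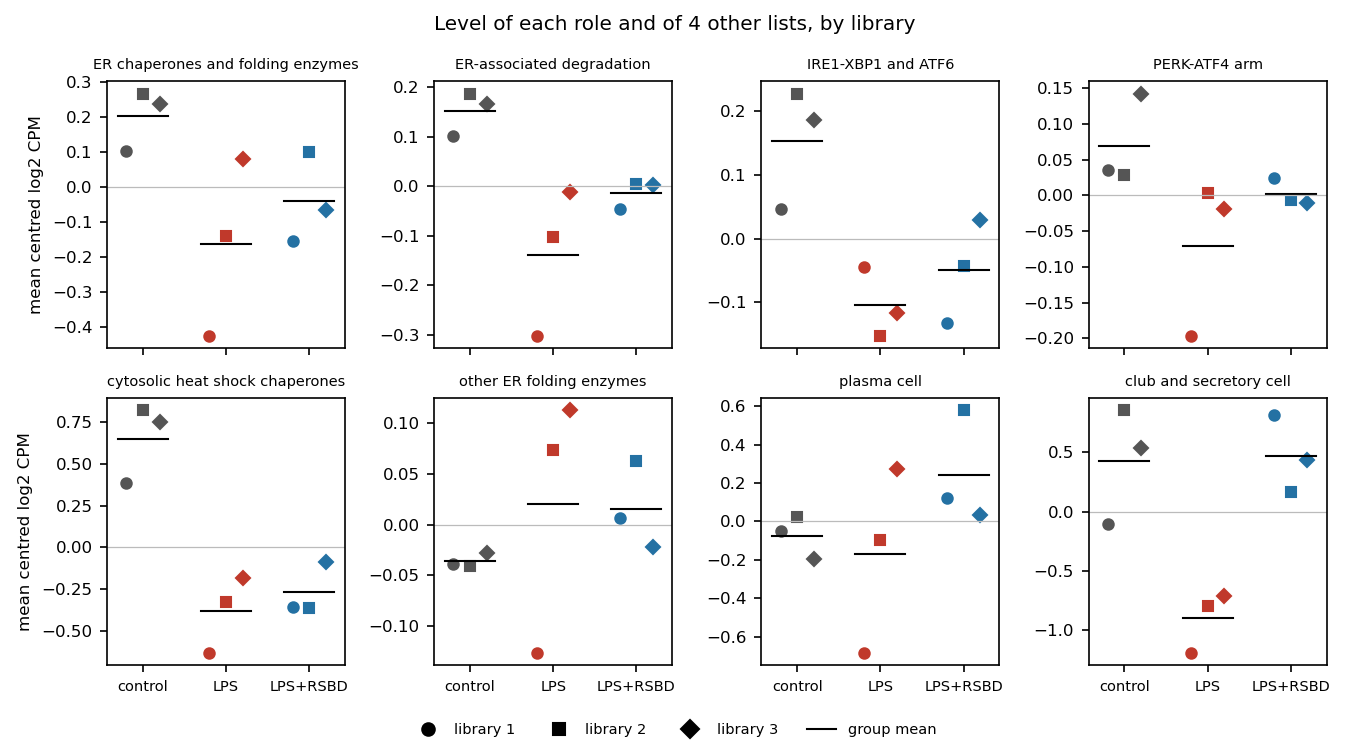
Mean log2 CPM, centred on its mean over the 9 libraries, for the 4 roles (upper row) and for cytosolic heat shock chaperones, other ER folding enzymes, plasma cell and club cell markers (lower row), with the library number given by symbol and the group mean by a line. Each panel has its own vertical scale. LPS library 1 is the lowest of the 9 for the chaperones and for the plasma cell markers, and all 3 controls lie above the other 6 libraries for the cytosolic heat shock chaperones.

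Genes of the same pathways outside the 32 members were counted to see how far the lower level reached. Of 20 other ER folding enzymes, 2 rose and 0 fell after LPS, with a median log2 fold change of 0.01. The 2 were Selenof, a selenoprotein that works with the glycoprotein folding sensor (log2 fold change 0.48 ± 0.13; edgeR adjusted p = 0.0365), and the reductase Dnajc10 (0.25 ± 0.07; edgeR adjusted p = 0.0449). Of 20 other degradation genes, 1 rose and 0 fell, the lectin Erlec1 (0.39 ± 0.10; edgeR adjusted p = 0.0321). Of 24 genes of translocation and glycosylation, 2 rose, Ssr4 and Sec61g of the translocon (0.43 ± 0.12 and 0.49 ± 0.14), and 1 fell, the translocation factor Sec63 (-0.26 ± 0.08). Of 20 genes of ER to Golgi transport, 0 rose and 2 fell, the golgin Golgb1 (-0.44 ± 0.09) and the coat protein Sec24c (-0.24 ± 0.07). The medians of these 3 lists were -0.03, 0.07 and -0.04. In LPS against control, 17.4% of all genes were called, 8.79% higher and 8.63% lower. Beside this, 10% of the other folding enzymes and 5% of the other degradation genes were called. The shares were 12.5% for translocation and glycosylation and 10% for ER to Golgi transport.

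Of 25 other ATF4 targets, 2 rose and 1 fell, with a median log2 fold change of -0.03. Atf5, a factor close to ATF4, fell by 0.54 on the log2 scale (SE 0.12; edgeR adjusted p = 0.0157), and the seryl-tRNA synthetase gene Sars rose by 0.24 (SE 0.07; edgeR adjusted p = 0.0373). The other gene that rose was Slc7a11, of the cystine transporter (0.99 ± 0.28; edgeR adjusted p = 0.0409). Of 18 other stress sensors and their factors, 3 rose and 1 fell, with a median of 0.14. Thus 12% of the other ATF4 targets and 22.2% of these sensors and factors were called, against 17.4% of all genes. The cell death effector Bak1 rose by 0.58 (SE 0.12), and Creb3l1, an ER-bound factor of secretory cells, fell by 0.59 (SE 0.15). The other 2 that rose were Bloc1s1, a known substrate of IRE1, and the kinase gene Eif2ak2 (PKR), each by 0.48. In none of these 6 lists was a gene called in LPS plus RSBD against LPS or against control.

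Chaperones of the cytosol were counted beside those of the ER. Of 16 cytosolic heat shock chaperones, 13 fell and 0 rose in LPS against control, with a median log2 fold change of -0.92. In LPS plus RSBD against control 12 fell, with a median of -0.85. Among all genes, 8.63% were called lower in LPS against control and 1.8% in LPS plus RSBD against control. Hspb1, a small heat shock protein, stood at 113 ± 8.38 CPM in the controls and at 38.5 ± 6.58 CPM after LPS (log2 fold change -1.55 ± 0.18; edgeR adjusted p = 0.00282). Hspa4l, a relative of HSP110, fell by 1.17 on the log2 scale (SE 0.15). In LPS plus RSBD against control, Hspb1 fell by 1.27 (SE 0.18) and the inducible HSP70 gene Hspa1b by 2.08 (SE 0.32). Of 12 immediate early genes, whose mRNA rises within minutes of stimulation or handling, 5 fell and 0 rose in LPS against control. The part of handling or collection in the members' values was not tested.

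The members with an ER stress element in the windows above were set beside those without one. Among the 11 members with either element, 4 fell in LPS against control (Hspa5, Dnajc3, Creld2 and Syvn1), and the median log2 fold change was -0.44. Among the 17 members with a promoter entry and neither element, 3 fell (Ern1, Atf4 and Ddit3), and the median was -0.17. Of all genes tested, 8.63% were called lower in this comparison, and their median log2 fold change was -0.01. The range was -0.93 to 0.01 with an element and -0.49 to 0.07 without, so the groups overlapped widely. Calr, Canx and Dnajb11 hold an element and were among the 5 chaperones nearest to 0, while Hyou1 had no promoter entry. For treated against LPS libraries the medians were 0.14 with and 0.06 without an element, with 0 calls in both. These counts describe the members and carry no test.

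By coordinates, all 32 genes stand in the deposited table as in GENCODE M21, and 11 share exon bases with another gene model. The largest shares were 10.3% of the exon bases of Hsp90b1, 8.05% of those of Eif2ak3 and 6.13% of those of Ddit3. On GRCm38, Hspa5 (ENSMUSG00000026864) lies on chromosome 2 from 34771970 to 34777547, Hyou1 (ENSMUSG00000032115) on chromosome 9 from 44379490 to 44392369, and Dnajc3 (ENSMUSG00000022136) on chromosome 14 from 118937976 to 118981697. Creld2 (ENSMUSG00000023272) lies on chromosome 15 from 88819646 to 88826683, Syvn1 (ENSMUSG00000024807) on chromosome 19 from 6046576 to 6053712, and Ern1 (ENSMUSG00000020715) on chromosome 11 from 106394650 to 106487852. Atf4 (ENSMUSG00000042406) lies on chromosome 15 from 80255184 to 80257541 and Ddit3 (ENSMUSG00000025408) on chromosome 10 from 127290774 to 127296288.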

How the data were processed

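The deposited table of the authors holds expected counts per gene, which are whole numbers, for 21930 protein-coding genes, and the authors' TPM values for the same genes. The submitters' processing notes name the genome GRCm38 (mm10) and the tools HISAT2 2.2.1, fastp 0.23.2, DESeq2 1.38.3 and StringTie 2.2.0, without their roles. Which tool counted reads, and with which annotation, is not given in the sources used here. Column names gave the group and replicate of each library, and the columns of the RSBD-treated mice were identified by elimination.

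The main test was that of edgeR 4.0.16 in R 4.3.3 (filterByExpr with minimum count 10 and minimum total 15, TMM scaling, robust quasi-likelihood fit of all 9 libraries with group as the factor). A gene was called at a Benjamini-Hochberg adjusted p under 0.05 over 15636 genes, 2-sided. SE and 95% intervals are of the fitted log2 fold changes, whose median SE over all genes was 0.15. CPM are TMM-scaled, with SD over 3 libraries. The p-values set the difference between groups against the spread between mice within a group. In the comparisons with control they do not separate treatment from the chromosome Y difference.

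The 32 members, their roles and the other lists were chosen with earlier results of these data known. All members are named. The value in every library is given for called members, the 3 sensors, Xbp1, Atf4 and Ddit3. Of other pathway genes, the 2 with the smallest p in a list and comparison are named where called. Sec63, Slc7a11, Bloc1s1, Eif2ak2, Tnfrsf13b and the libraries' values of further members (Derl3, Herpud1, P4hb) were added after their values were seen. The fit was tested on simulated data.

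Alternatives were DESeq2 1.42.0, limma-trend (limma 3.58.1) on log2 TPM with pseudocounts 1 and 0.1, other scalings and filters, the 6 libraries of a comparison alone, a replicate block and leaving out each library. Replicate numbers did not pair the libraries. Protein sequences were not used here.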

Additional observations from a re-analysis of the deposited data

How the results depend on the processing

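No member changed direction with a call under any of the 18 alternatives per comparison, and of the 576 values in each comparison 512, 576 and 554 kept their side of the threshold in LPS against control, LPS plus RSBD against LPS and LPS plus RSBD against control. In LPS against control 8 members were called, and 13 by limma-trend on log2 TPM with either pseudocount; leaving out 1 library gave 2 to 11, with 2 without control library 2, 3 without control library 3 and 4 without LPS library 2. All were lower except Derl1, which was called higher without LPS library 1. In LPS plus RSBD against control 2 members were called, 5 by DESeq2, 1 by limma-trend on unfiltered log2 TPM and 1 with the replicate block; leaving out 1 library gave 0 to 5, with 0 without control library 2, control library 3 or treated library 1 and 5 without LPS library 1. In LPS plus RSBD against LPS 0 members were called in all 18. The cause of these differences was not tested. The block used the replicate numbers, whose libraries correlated between -0.21 and 0.12 in their deviations, and not every library correlated best with its own number, so they share only a number. Over all genes, 2723 were called in LPS against control, 1828 with the block, 1532 by limma-trend on unfiltered log2 TPM and 786 to 2870 with 1 library left out (786 without LPS library 2). In LPS plus RSBD against control 578 were called, 240 with the block, 1674 by DESeq2, 313 and 307 by limma-trend with pseudocounts 1 and 0.1, 137 without the TPM filter and 94 to 961 with 1 library left out (94 without control library 2). On log2 TPM with pseudocount 1, 31.3% of those calls were higher, against 51.2% by counts. In LPS plus RSBD against LPS 157 were called by DESeq2 and 0 to 4 with 1 library left out. With 3 libraries a group and a median SE of 0.15, small log2 fold changes could be missed in genes with such an SE. Small ones that were called, such as that of Sec24c in LPS against control (-0.24 ± 0.07), had a smaller SE.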

Other observations

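Derl2, which encodes a derlin of the degradation channel, had 16.7 CPM in LPS plus RSBD library 2 and between 36.7 and 56.4 CPM in the other 8 libraries. In the TPM table the same library stood at 16.9 for Derl2, beside 21.1 and 17.7 in the other 2 treated libraries. The count and the TPM of this gene therefore differ in how far the library stands from the rest, and its count-based log2 fold changes carry a wide SE of 0.30.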
